A study of Homo sapiens with 14 samples.

Results

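The study set SETD2 knockout HEK293T cells beside wild type HEK293T cells, an embryonic kidney line that expresses the large T antigen of SV40. Both genotypes share the HEK293T background. SETD2 trimethylates lysine 36 of histone H3 over the bodies of transcribed genes. The labels list 3 RNA libraries of each genotype, made from total RNA. They describe removal of ribosomal RNA for all of them but 1 library of the wild type, whose label gives a chromatin protocol instead. The labels name no treatment, time point or clone, and they do not say how the knockout was made. The subject here is a pair of imprinted small RNA clusters, on chromosome 14q32 (the DLK1-MEG3 region) and on chromosome 15q11 (the SNRPN, SNORD116 and SNORD115 region).

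A row of the deposited tables, which stands for 1 annotated transcript, was a member when its locus overlapped 14:101190000-101540000 or 15:25200000-25530000 on hg19. This gave 309 of 204092 rows, at 65 of 35671 loci. A locus is the interval the authors' tables give, in which overlapping transcripts are joined. Loci of up to 150 bases are called small and the others host loci. The 14q32 cluster held 116 rows at 11 host loci and 49 rows at 49 small loci. The 15q11 cluster held 141 rows at 2 host loci and 3 rows at 3 small loci. Small RNAs inside a host locus are rows of that locus and could not be set apart, since the tables give a length for 0 rows.

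Imprinted genes are expressed from the copy inherited from 1 parent. In the DLK1-MEG3 region the protein-coding genes DLK1 and RTL1 are expressed from the paternal copy, and the noncoding RNAs MEG3 and MEG8, with the miRNAs and box C/D snoRNAs processed from long transcripts around them, from the maternal copy. In the 15q11 region a long paternal transcript that starts at SNRPN is spliced around arrays of SNORD116 and SNORD115 copies and runs on, in neurons, antisense to UBE3A. Loss of the paternal copy of this region causes Prader-Willi syndrome. Box C/D snoRNAs guide methylation of ribose in other RNAs, and miRNAs pair through their seed, bases 2 to 8, with messages that they repress.

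The RefSeq table used here (GRCh38.p14) lists 53 miRNA genes and 46 snoRNA genes between DLK1 and MEG9, among them 9 copies of SNORD113 and 31 copies of SNORD114. Between SNRPN and UBE3A it lists 84 snoRNA genes, of which 30 are SNORD116 copies and 48 are SNORD115 copies. None of the transcript IDs of the deposited tables matched an entry of the tables of names (0 matches), so no row could be paired with a symbol, and the levels of SETD2 and of DLK1, MEG3, SNRPN and the single small RNAs by name were not analysed here. The sequences below show what the 14q32 cluster encodes and carry no value of their own. All 53 miRNA genes had mature sequences, 96 arms in all with 92 distinct sequences and 81 distinct seeds. Of these seeds, 13 occurred in more than 1 gene of the cluster, and 10 of the 13 in arms of different sequence. Genes with identical arms can share reads, so values of such copies would be uncertain in any table. Of the 10 groups, 5 are printed to show how alike these small RNAs are, with the seed in capitals, from RefSeq, 5′ to 3′.
hsa-miR-494-5p: aGGUUGUCcguguugucuucucu
hsa-miR-323b-5p: aGGUUGUCcguggugaguucgca
hsa-miR-410-5p: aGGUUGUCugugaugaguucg
hsa-miR-376a-3p: aUCAUAGAggaaaauccacgu
hsa-miR-376b-3p: aUCAUAGAggaaaauccauguu
hsa-miR-154-3p: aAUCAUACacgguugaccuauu
hsa-miR-487a-3p: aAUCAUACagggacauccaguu
hsa-miR-300: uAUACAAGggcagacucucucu
hsa-miR-381-3p: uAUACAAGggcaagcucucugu
hsa-miR-379-3p: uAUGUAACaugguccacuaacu
hsa-miR-411-3p: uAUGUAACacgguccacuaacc
The seed GGUUGUC belongs to 3 genes with 3 different arms, and UCAUAGA to 3 genes with 2 different arms, since MIR376A1 and MIR376A2 give the same arm. The other printed groups hold 2 genes each, whose arms differ only after the seed.

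The values are FPKM (fragments per kilobase, scaled to the mapped fragments), deposited by the authors as 1 value per transcript and group. There is no value for a single library, so no spread between libraries could be computed and the depth is unknown. The only errors are the lower and upper bounds that the authors deposited in their tracking table, whose level is not given. Their table of tests gives the FPKM of both groups, a p-value and a q-value. The wild type values of the tables differ by a nearly fixed factor (median ratio of tracking to test value 0.976), but those of the knockout do not, where over 63830 rows of at least 0.5 FPKM the 5th percentile of the ratio was 0.652 and the 95th was 1.65. The sources used here do not state how many knockout libraries entered each table. Levels below are from the table of tests unless the tracking table is named. Bulk values cannot tell fewer expressing cells from less RNA per cell.

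Almost all of both clusters was listed at 0. Of the 309 members, 290 were at 0 FPKM in both groups and in both tables, and 19 had a value above 0 anywhere. None of the 309 had a failed estimate (0 rows). All 52 small loci were among those at 0, in knockout and wild type cells alike. Depth is unknown, and how well these libraries recover RNAs this short was not tested. A 0 therefore does not show that an RNA was absent. Only 5 members, all at the host loci of 15q11, reached 1 FPKM in a group.

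The 49 small loci of 14q32 lay in 4 stretches when loci whose starts were at least 20 kb apart were divided. A first stretch held 3 loci of 72 to 93 bases at 14:101335397-101341441. A single locus of 75 bases stood at 14:101402828-101402902. The third stretch held 10 loci of 70 to 75 bases at 14:101433389-101464878, with a median distance of 1115 bases between starts. The last and densest held 35 loci of 78 to 134 bases at 14:101488366-101533138, with a median distance of 785 bases. Each of these 49 loci was listed at 0 FPKM in both groups.

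In 15q11, 3 small loci of 82 bases each stood apart from the host loci, at 15:25492492-25496087, with a median distance of 1757 bases between starts. They too were listed at 0 in both groups. The rule that was to name the 3 highest small loci of each stretch therefore named none.

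A value of 0 was also what most small loci elsewhere showed. Of 2787 small loci outside the clusters with lengths in the members' range, 70 to 134 bases, and not on the mitochondrial chromosome, 103 (3.70%) were above 0 in a group. The 0 of 52 of the clusters allows a share of up to 5.77%, which is above that share, so no difference from other small loci was detectable with this number of loci. This limit covers counting error only. Of these loci elsewhere, 47 had a value in knockout cells, with a lowest of 5.52 FPKM and a median of 35.4 FPKM. In wild type cells 93 had a value, with a lowest of 1.30 FPKM and a median of 14.95 FPKM. The sets of loci differ between the groups, so these levels do not compare the genotypes. The lowest values are only the lowest listed and not a measured limit of detection.

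Most other dense runs of small loci were at 0 too. Elsewhere in the genome the same distance rule gave 9 runs of at least 8 small loci, a comparison added after the data were seen. In 7 of them every locus was at 0 in both groups, including 53 loci at 19:54156939-54269886 and 15 at X:146271222-146366246. The other 2 were the mitochondrial chromosome, where 14 of 20 small loci had a value, and a run on chromosome 12 with a value at 1 of its 13 loci. The 7 also included 53 loci at 14:22951993-23014042, of a median 62 bases, and 38 at 14:106323682-106382715, of a median 31 bases. Length alone does not show that such a locus encodes a small RNA, and what the loci of these runs encode was not determined.

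**Figure D1:**
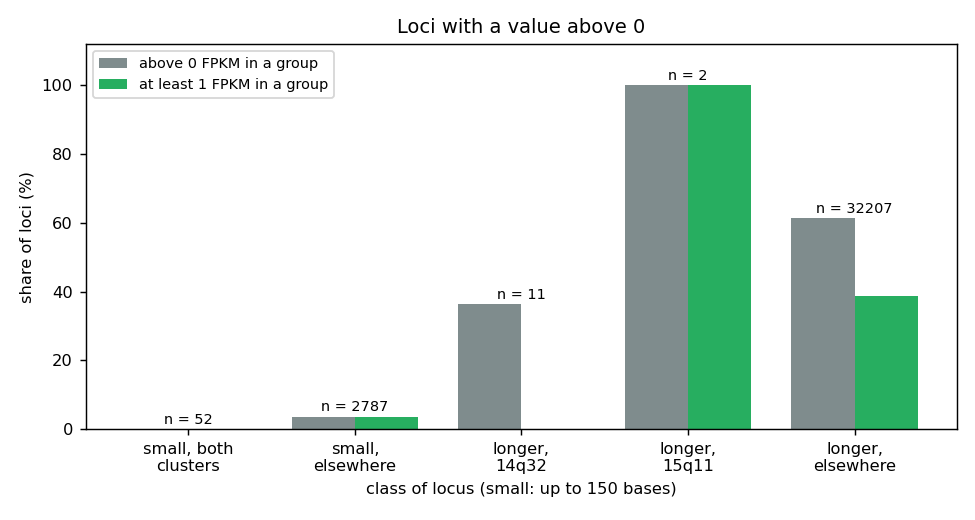
Share of loci (y axis, %) with a summed value above 0 FPKM (grey) or of at least 1 FPKM (green) in a group, for 5 classes of locus (x axis), with the number of loci above each pair of bars. The small loci of both clusters are at 0, small loci elsewhere of the same lengths are at 3.70%, and the 2 host loci of 15q11 are both above 1 FPKM.

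The host loci of 14q32 held only traces. Of their 116 rows, 5 (4.31%) were above 0, against 63.4% of the rows of longer loci elsewhere. Counted by locus the shares lay closer: 4 of the 11 (36.4%) were above 0, against 61.4% of longer loci elsewhere. How many of the 116 are small RNAs inside a host locus cannot be told from the tables. The highest value of any of them was 0.145 FPKM, in the wild type, at the first host locus, 14:101192042-101201539, which was listed at 0 in the knockout. At 14:101245747-101327368, a locus of 81.6 kb with 32 rows, a single row had a value, 0.0195 FPKM in wild type and 0 in knockout cells. At 14:101346992-101351184 wild type cells held 0.00380 FPKM and knockout cells 0. At the last host locus, 14:101536248-101539274, a row held 0.0215 FPKM in the knockout only, and another 0.0468 FPKM in the wild type only.

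The other 7 host loci of 14q32, which lie between the first and the last and include loci of 15, 23 and 19 rows, were at 0 in both groups. Summed over all 11 loci the knockout held 0.0215 FPKM and the wild type 0.215 FPKM. The authors tested 0 of the 165 rows of this cluster, so no comparison of the genotypes exists here. In the wild type 4 of the 5 rows with a trace had a value and in the knockout 1 did. Rows listed at 0 in the knockout only outnumbered those at 0 in the wild type only over all longer loci elsewhere too, with 30050 against 7467.

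The 14q32 cluster stood between expressed neighbours. Of 13 longer loci in the 1 Mb before the region, 7 reached 1 FPKM in a group, and of 17 in the 1 Mb after it, 5 did. Summed over each side, these flanks held 369 and 318 FPKM in knockout cells, against 384 and 353 FPKM in wild type cells. The nearest longer locus of at least 1 FPKM before the region, 14:101003486-101053750, held 4.13 FPKM in knockout and 3.62 FPKM in wild type cells and ended 136 kb before it. The nearest after it, 14:102100791-102198859, held 65.0 and 49.1 FPKM and began 561 kb beyond it. The cluster thus lies in a stretch of 1047 kb without an expressed longer locus. Of 12433 gaps between expressed longer loci on chromosomes 1 to 22 and X, 375 (3.02%) were as long or longer, 11 of them among the 383 of chromosome 14. Each gap counts once here, and the median gap was 24.7 kb. The share is therefore not how often a region of 350 kb would lie in so long a stretch.

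The 15q11 cluster had the opposite setting. Its 2 host loci were the only ones above 1 FPKM in a wide stretch: of 8 longer loci in the 1 Mb before the region and 6 in the 1 Mb after it, 0 reached 1 FPKM in either group. The nearest expressed longer loci lay 1327 kb before and 1259 kb after the region.

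**Figure D2:**
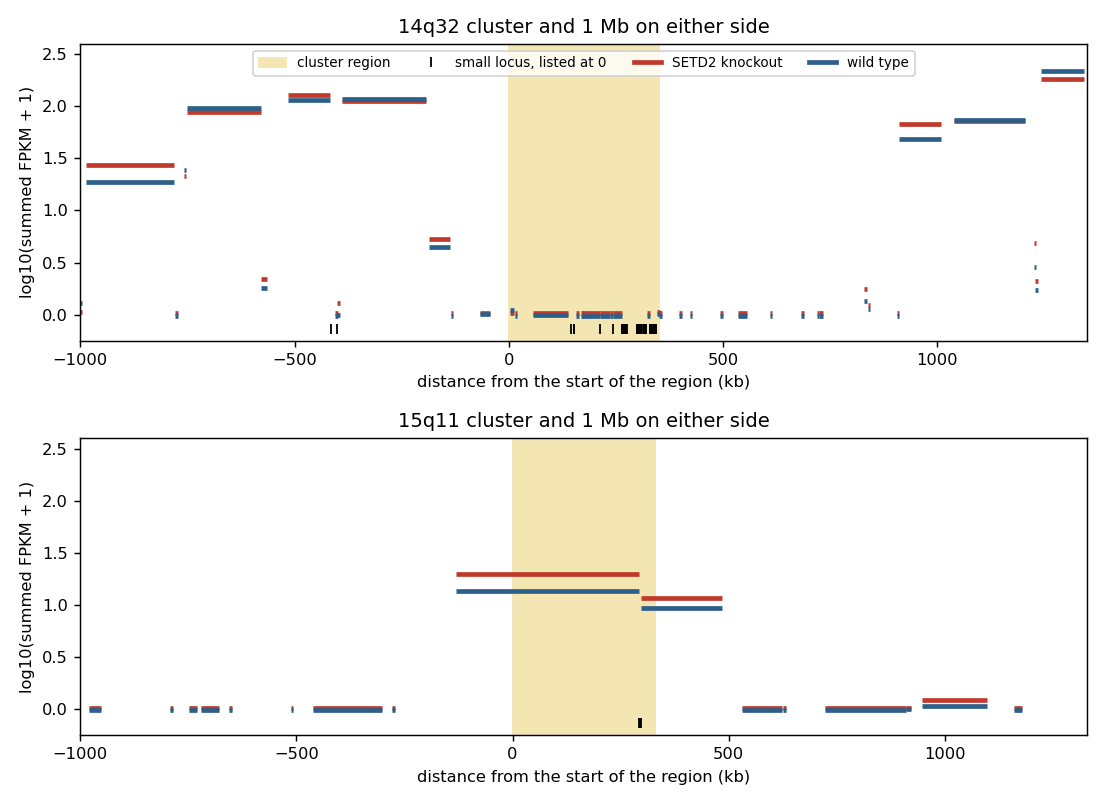
Summed FPKM of each longer locus, as log10(FPKM + 1) on the y axis, along the 2 clusters and 1 Mb on either side (x axis, kb from the start of the region, shaded), for the knockout (red) and the wild type (blue). Black ticks mark small loci, all listed at 0. The 14q32 region is at or near 0 between expressed flanks, and the 15q11 region holds the only 2 loci above 1 FPKM in its window.

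The larger host locus of 15q11, 15:25068794-25492435, spans 424 kb, of which 292 kb lie in the region, and it has 126 rows. Of these, 121 were at 0 in both groups of the table of tests and 5 (3.97%) were above 0. Over the 11 loci of the tables with at least 100 rows the share of rows above 0 ran from 0% to 84.0% with a median of 70.9%. The 3 with a lower share than this locus all lie on alternate haplotype sequences of chromosome 6, at 0% to 0.885%. Of the 8 on the primary chromosomes this locus had the lowest share, and the other 7 ran from 54.4% to 84.0%. Its summed level was 18.2 FPKM in knockout cells against 12.9 FPKM in wild type cells, higher than 52.1% and 45.9% of the longer loci of at least 1 FPKM. The signal of the locus was therefore of middling height and came from very few of its rows. How many of the 126 rows are small RNAs inside the locus could not be told. Of small loci elsewhere with lengths in the members' range, 3.70% were above 0. Whether small RNA rows account for the low share of this locus was not tested.

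The leading transcript, ENST00000441797, stood at 17.3 FPKM in knockout cells against 8.65 FPKM in wild type cells, 2.01-fold higher in the knockout. In the tracking table it stood at 16.5 FPKM with bounds of 9.06 to 23.9 FPKM in knockout cells, and at 8.46 FPKM with bounds of 0 to 17.6 FPKM in wild type cells. These intervals overlapped, and the authors' deposited Cuffdiff p-value was 0.103 (q = 0.991), so the difference did not pass.

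The second transcript of the locus, ENST00000460716, went the other way. It held 0.880 FPKM in knockout cells against 3.96 FPKM in wild type cells, 4.49-fold lower in the knockout, and its Cuffdiff p-value in the authors' deposited table was 0.286 (q = 0.991). Its bounds in the tracking table were 0 to 2.78 FPKM in knockout cells and 0 to 10.7 FPKM in wild type cells. The leading transcript thus made up 95.2% of the summed level of the locus in knockout cells and 67.2% in wild type cells, a difference in make-up for which the tables hold no test. Both transcripts share the locus, and how fragments were divided between them enters each of these values. The remaining 3 rows with a value stayed at or under 0.252 FPKM in both groups.

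The smaller host locus, 15:25497372-25684128, spans 187 kb, of which 32.6 kb lie in the region, so most of it reaches past the cluster. In the RefSeq table the first protein-coding gene that starts after the SNORD115 copies is UBE3A, a ubiquitin ligase, but the deposited tables pair the locus with no name. It has 15 rows, 9 of them above 0. Its summed level was 10.2 FPKM in knockout cells against 8.46 FPKM in wild type cells.

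Its leading transcript, ENST00000232165, stood at 7.74 FPKM in knockout cells against 5.52 FPKM in wild type cells, 1.40-fold higher, and its Cuffdiff p-value in the authors' deposited table was 0.251 (q = 0.991). In the tracking table the bounds were 4.40 to 9.71 FPKM around 7.06 FPKM in knockout cells and 0.343 to 10.4 FPKM around 5.39 FPKM in wild type cells. The knockout interval lay wholly inside that of the wild type. This transcript made up 75.8% of the locus in knockout cells and 65.3% in wild type cells.

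The third transcript of the smaller locus by mean FPKM, ENST00000438097, was listed at 0 in the knockout in both tables and at 1.87 FPKM in the wild type, with wild type bounds of 0 to 8.06 FPKM. Its Cuffdiff p-value in the authors' deposited table was 0.109 (q = 0.991). The second by mean FPKM, given without its ID, reached 1.91 FPKM in knockout cells against 0.476 FPKM in wild type cells, with a p-value of 0.232 (q = 0.991) in the authors' deposited table. Its knockout value in the tracking table was lower, at 1.25 FPKM. The last tested transcript was at 0.403 FPKM in knockout and 0.402 FPKM in wild type cells in the table of tests, but at 0.854 and 0.392 FPKM in the tracking table. Its ratio of knockout to wild type was thus 1.001 in the table of tests and 2.18 in the tracking table, and its intervals overlapped.

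**Figure D3:**
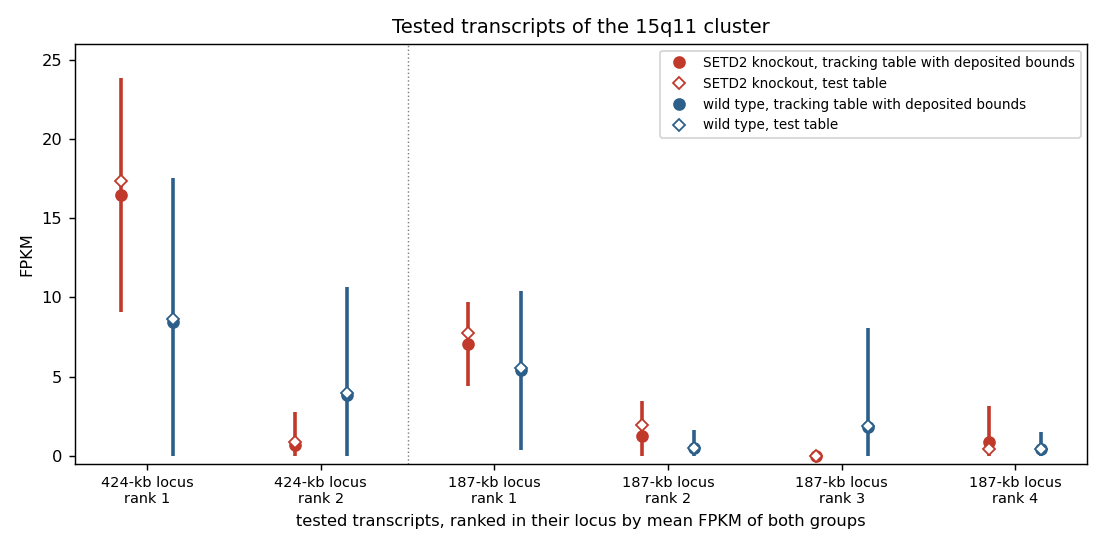
FPKM (y axis) of the 6 tested transcripts of 15q11 (x axis, ranked in their locus by mean FPKM), in the knockout (red) and the wild type (blue). Filled points are tracking-table values with the authors' bounds as lines, and open diamonds are test-table values. The bounds of the 2 groups overlap for all 6, also for the leading transcript at 17.3 and 8.65 FPKM in the table of tests.

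The comparison of the knockout with the wild type gave no call in either cluster. Of the 309 members the authors tested 6, all at the host loci of 15q11, and 0 passed a q-value of 0.05 in the authors' Cuffdiff test, where 0.255% of all 85852 tested rows did. None passed at an unadjusted p of 0.05 either (0 of 6, where 2.38% of all tested rows did), and the lowest p of a member was 0.103. Intervals that did not overlap between the groups were found for 0 of the 6, and for 0.632% of all tested rows. With 6 tested members and shares this low, counts of 0 do not set the clusters apart from other rows.

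The 5 members of at least 1 FPKM in a group had a median log2((knockout FPKM + 1)/(wild type FPKM + 1)) of 0.42, with 3 higher and 2 lower in the knockout. Over all 14 rows above 0 at these loci the median was -0.012, so its direction rests on the filter. Over all 60467 rows of that level the median was 0.07, and the middle 50% ran from -0.43 to 0.54. This scale understates the change of low transcripts. Summed over both host loci of 15q11, knockout cells held 28.4 FPKM and wild type cells 21.3 FPKM, a ratio of 1.33. It was 1.29 in the tracking table. The single leading transcript set this direction: without it the sums were 11.1 and 12.7 FPKM, a ratio of 0.875.

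By locus, the ratio of knockout to wild type was 1.42 at the larger and 1.21 at the smaller host locus. Without the leading transcript of each locus, a check added after the data were seen, these ratios turned to 0.210 and 0.842. The direction of each sum thus rested on 1 transcript. Its ratio was above that of its locus, so leaving it out had to lower the ratio. How fragments were divided among the transcripts of a locus enters these values. Among 12405 longer loci that reached 1 FPKM in either group and were at 0 in neither, the middle 50% of such ratios ran from 0.847 to 1.27 around a median of 1.04. A ratio as high as that of the larger host locus was reached by 16.1% of them.

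**Figure D4:**
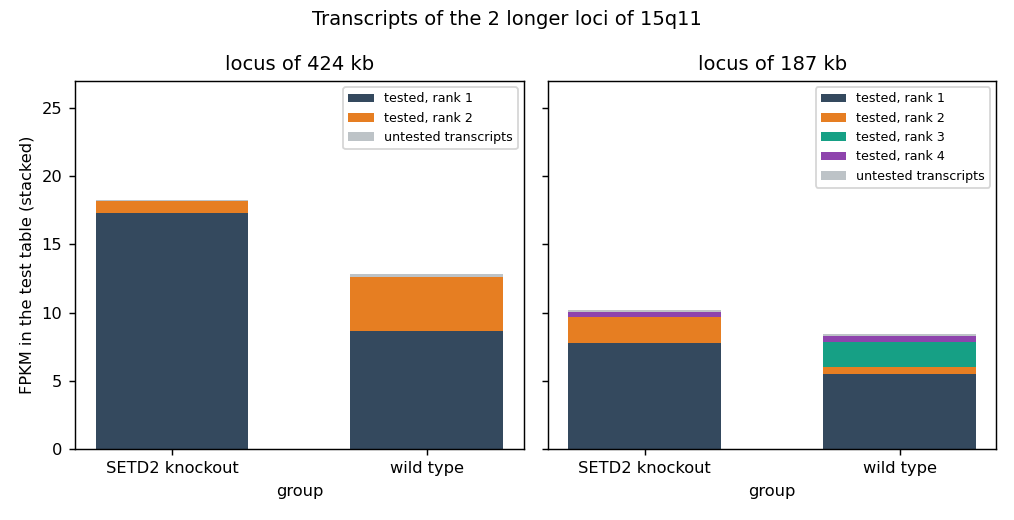
FPKM in the table of tests (y axis), stacked by transcript, in the 2 host loci of 15q11 (panels) for the knockout and the wild type (x axis). Colours mark the tested transcripts by rank and grey the untested ones. The first transcript of the larger locus makes up 95.2% of the knockout bar and 67.2% of the wild type bar.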

How the data were processed

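Per the labels' protocols, total RNA of wild type and SETD2 knockout HEK293T cells was purified with a kit, ribosomal RNA was removed, and libraries were sequenced. For 1 wild type library the label gives a chromatin protocol. The labels do not tell whether replicate libraries are separate cultures. The authors' p-values thus need not measure the spread between cultures, and the spread between those libraries may be technical. Build hg19 and the tools Bowtie 1.1.2, TopHat and Cuffdiff are named, with no role, in the submitters' processing notes. Which annotation was used is not stated there. ChIP data (8 samples) were left out.

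The authors deposited FPKM values per transcript and group, with bounds in a tracking table, and a table of tests with the p-value and the q-value of each transcript, per the file headers. The table named for genes and that named for transcripts were identical. Starts had 1 added, because the files count from 0. FPKM were summed per locus after 50 rows with a failed estimate, none of them a member, were left out. A call is the authors' q-value under 0.05, adjusted by them over all tested rows. No test was added, since group values allow none. Log2 values use a pseudocount of 1 FPKM, and plain ratios use none.

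The members and the lists were chosen with earlier results of these data known. Named members were to be all calls, the 3 highest small loci per stretch, the 3 highest transcripts per host locus, and the 3 largest rises and falls per cluster and class of at least 1 FPKM in both groups. At most 4 IDs are printed, since no ID could be paired with a symbol, so at each 15q11 host locus only the highest transcript and the highest of those lower in the knockout are named by ID. The functions for membership, calls, runs and intervals were tested on simulated data. Alternatives were the other table, other thresholds, filters and pseudocounts, a limit of 300 bases for small loci, rows wholly within the regions, and sums without the highest member. Python 3.11.15, pandas 2.3.3, numpy 2.4.6 and matplotlib 3.10.9 were used.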

Additional observations from a re-analysis of the deposited data

Results flagged for a closer look

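In 2 untested transcripts of the host loci of 15q11, the knockout was listed at 0 in the table of tests but stood above the wild type in the tracking table and enters the sums of that table. In the larger locus, a transcript of the tracking table held 0.366 FPKM in knockout cells against 0.246 FPKM in wild type cells, with bounds of 0 to 1.39 and 0 to 1.104 FPKM. In the smaller locus, another stood at 0.116 and 0.0538 FPKM, with bounds of 0 to 0.984 and 0 to 0.682 FPKM. Both pairs of intervals overlapped. The cause of the difference between the tables was not tested.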

How the results depend on the processing

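Of 65 alternative values computed, 24 could differ from the main value, and 15 of these kept their direction, or a count or ratio within 1.5 times. Of the 24, 5 moved further than this and 4 turned direction. The alternatives that could not differ had no tested row or no value above 0 to count, took the same rows, or narrowed a count of 0. Calls could occur only among the 6 tested host rows of 15q11, where they were 0 at q-values of 0.05, 0.10 and 0.20 and at an unadjusted p of 0.05. No member changed class with small loci of up to 300 bases. Leaving out the member of highest mean FPKM turned the ratio of the summed 15q11 host loci from 1.33 to 0.875, that of the larger locus from 1.42 to 0.210 and that of the smaller from 1.21 to 0.842, the last 2 chosen after the data were seen. It moved the ratio of the 14q32 traces from 0.1001 to 0.307. The median log2 fold of 15q11 host rows went from 0.42 to -0.012 when all 14 rows above 0 were taken. In 15q11, 6 rows were at 0 in the knockout only (4 in the tracking table), against 1 in the wild type only. Over all longer loci elsewhere these counts were 30050 against 7467. With at least 1 FPKM required in the other group, rows at 0 in the knockout only went from 4 to 0 in 14q32 and from 6 to 1 in 15q11. Those at 0 in the wild type only went from 1 to 0 in each. For these shifts fewer or more rows entered by construction. No host row of 15q11 lies wholly within its region, so that alternative gave no ratio there. No paired analysis was possible because the files hold group values only, and for the same reason no replicate could be left out. Depth is unknown, so a value of 0 sets no limit on a level.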
